A study of Mus musculus with 8 samples.

Results

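The genes that decide the fate of pyruvate were followed in *iMLL-AF9* mouse leukemic cells treated with IOX5, an inhibitor of the HIF prolyl hydroxylases (PHDs). They were chosen by name as 10 of the 54838 genes listed in the count files. They are the pyruvate dehydrogenase kinases *Pdk1*, *Pdk2* and *Pdk3*, the pyruvate dehydrogenase E1 subunits *Pdha1* and *Pdhb*, the lactate dehydrogenases *Ldha* and *Ldhb*, the lactate carriers *Slc16a1* (MCT1) and *Slc16a3* (MCT4), and *Mpc1*, a subunit of the mitochondrial pyruvate carrier. RNA-seq libraries were made from 4 samples treated with DMSO, the solvent used as the vehicle, and from 4 treated with IOX5, and the samples of each group were numbered 1 to 4. The cells of both groups came from bone marrow and carried a doxycycline-inducible *MLL-AF9* fusion oncogene on a C57BL/6 background, and their genotype label was otherwise WT. In the labels they are leukaemic stem cells, whereas the series description has them as preleukaemic. For these RNA samples the dose of IOX5, the time of treatment and the meaning of the numbers 1 to 4 are not stated. The p-values below therefore measure the spread between these samples, part of which may be technical.

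Pyruvate, the end product of glycolysis, has 2 main fates in a mammalian cell. Lactate dehydrogenase reduces it to lactate in the cytosol, and monocarboxylate transporters carry the lactate across the plasma membrane together with a proton. Alternatively, the mitochondrial pyruvate carrier brings it into the mitochondrial matrix, where the pyruvate dehydrogenase complex converts it to acetyl-CoA. The PDH kinases switch this complex off by phosphorylating its E1 alpha subunit, and the PDH phosphatases switch it on again. HIF-1 is known to induce *Pdk1*, *Ldha* and *Slc16a3* in many cell types, so that hypoxic cells make lactate and spare mitochondrial oxidation. Whether the mRNAs of these genes moved when the hydroxylases were inhibited is the question that IOX5 against DMSO addresses here.

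The promoter stretches of 4 of the genes are shown. *Pdk1* and *Ldha* are the members called without the replicate block, and *Slc16a3* and *Slc16a1* are the lactate carriers among the members, whose ratio is followed in each sample. Each is the 250 bases before the start site that RefSeq gives for the gene (build GRCm38.p6), written 5′ to 3′ on the strand of the gene. Capitals mark each match to ACGTG or GCGTG on either strand, the core letters of the hypoxia response element to which HIF binds, and overlapping matches are joined into 1 stretch. For *Ldha* and *Slc16a3* the RefSeq start lies inside the GENCODE gene. The palindrome CACGTG, an E-box that MYC and USF proteins also bind, holds ACGTG on both strands and counts as 1 stretch.
Pdk1 (chr2:71872974-71873223, plus strand): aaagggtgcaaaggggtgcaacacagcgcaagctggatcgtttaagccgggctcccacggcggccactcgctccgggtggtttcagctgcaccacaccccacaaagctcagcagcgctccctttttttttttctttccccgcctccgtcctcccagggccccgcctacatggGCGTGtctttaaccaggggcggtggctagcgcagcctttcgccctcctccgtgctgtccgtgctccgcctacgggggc
Ldha (chr7:46845554-46845803, plus strand): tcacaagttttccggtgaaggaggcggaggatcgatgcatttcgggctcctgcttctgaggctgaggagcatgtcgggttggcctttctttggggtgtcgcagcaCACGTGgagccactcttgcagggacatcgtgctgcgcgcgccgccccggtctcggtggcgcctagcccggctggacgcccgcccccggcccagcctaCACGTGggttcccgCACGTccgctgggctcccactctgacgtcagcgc
Slc16a3 (chr11:120948817-120949066, plus strand): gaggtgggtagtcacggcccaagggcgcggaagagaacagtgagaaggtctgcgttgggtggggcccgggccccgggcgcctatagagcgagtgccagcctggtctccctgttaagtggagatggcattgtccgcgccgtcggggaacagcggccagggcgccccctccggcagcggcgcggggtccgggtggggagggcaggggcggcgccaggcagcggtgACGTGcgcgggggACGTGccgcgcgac
Slc16a1 (chr3:104638414-104638663, plus strand): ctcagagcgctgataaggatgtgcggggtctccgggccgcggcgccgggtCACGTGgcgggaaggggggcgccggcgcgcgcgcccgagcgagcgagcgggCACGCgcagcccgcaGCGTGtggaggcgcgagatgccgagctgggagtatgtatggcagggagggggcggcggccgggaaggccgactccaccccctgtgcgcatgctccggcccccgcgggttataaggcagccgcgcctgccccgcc
*Pdk1* held 1 stretch, whose first base lay 78 bases before the start. *Ldha* held 3, at 145, 48 and 34 bases, of which the first pair are E-box palindromes. *Slc16a3* held 2, at 27 and 14 bases, and *Slc16a1* held 3, at 200, 149 and 134 bases, the first again an E-box palindrome. The other members held between 1 (*Pdk2*, *Ldhb* and *Mpc1*) and 4 (*Pdk3*) stretches, with 2 in *Pdhb* and 3 in *Pdha1*. Of all 32851 RefSeq promoters searched in the same way, 38.6% held at least 1 stretch and 4.65% held 3 or more. A match is a description of the letters and not a binding site.

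The libraries held between 11351507 and 14116054 reads on genes. Expression is given as CPM, counts scaled to a common library size with TMM factors. All 7 markers of immature myeloid leukemic cells that were examined (*Ptprc*, *Kit*, *Cd34*, *Itgam*, *Hoxa9*, *Meis1* and *Mpo*) had at least 10 reads in every library, and the summed level of the T cell markers was at most 0.162 CPM. Libraries 1 and 2 stood apart from 3 and 4 in both groups. *Mpo*, a primary granule enzyme, was at 984.1 to 1565 CPM in the libraries numbered 1 and 2 and at 3077 to 3915 CPM in those numbered 3 and 4, and *Cd34* was at 23.2 to 40.4 and at 133.1 to 230.9 CPM. Samples with the same number moved together, although numbers 3 and 4 were not told apart from each other. The edgeR fit was therefore repeated with the number as a blocking factor (the replicate block). DESeq2, voom and the ratios of genes were tested without a block. The summed level of the 4 macrophage markers differed between the groups without overlap. It was 37.9 to 76.1 CPM with DMSO and 83.2 to 237.7 CPM with IOX5, mostly *Adgre1* and *Mrc1*, with *C1qa* at no more than 0.706 CPM in any library, and its part in the results that follow was not tested. The summed levels were 3.81 to 20.4 and 6.84 to 38.8 CPM for erythroid markers, 15.5 to 61.7 and 34.3 to 106.8 CPM for megakaryocyte markers, and 1.79 to 5.01 and 1.72 to 4.24 CPM for stromal and endothelial markers with DMSO and IOX5, and *Cd8a* had no read. Although their ranges overlapped, the erythroid and the megakaryocyte sums were higher with IOX5 within every number, and their part was not tested either.

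Of the 10 genes, 9 passed the filter on low counts and *Ldhb* did not. With IOX5, *Pdk1* and *Ldha* rose, and no other member passed an adjusted p of 0.05 by edgeR's quasi-likelihood test with Benjamini-Hochberg adjustment over the 12405 genes tested. At an unadjusted p under 0.05 there were 7 of the 9, beside 20.2% of all genes tested. DESeq2 called 5, beside 8.79% of all genes, and limma's voom 3, beside 8.35%. DESeq2 gave *Pdk2* no adjusted p, and genes without one count as not called in its share. By edgeR's adjusted p, 0.774% of all genes tested were called higher and 1.25% lower (96 and 155 genes, or 101 and 108 under upper-quartile scaling). With the replicate block, 6 members were called higher (*Pdk1*, *Pdk2*, *Pdk3*, *Ldha*, *Slc16a3* and *Mpc1*) and 2 lower (*Pdha1* and *Slc16a1*), where 11.2% and 9.43% of all genes were called. The median log2 fold change of the 9 members was 0.38, against 0.017 for all genes tested. Every IOX5 sample lay above every DMSO sample for 4 members (*Pdk1*, *Pdk2*, *Ldha* and *Mpc1*), as for 5.98% of all genes, and below for 2 (*Pdha1* and *Slc16a1*), as for 8.3%. Of these, *Pdk2* passed the filter on low counts through its IOX5 libraries. The members were named with results of these samples known, and *Pdk1*, *Ldha*, *Mpc1*, *Slc16a1* and *Pdha1* also stand in source tables that the study drew from these libraries, so their directions are not independent evidence. Since RNA was taken from bulk cells, fewer cells of a type and less RNA per cell cannot be told apart.

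**Figure D1:**
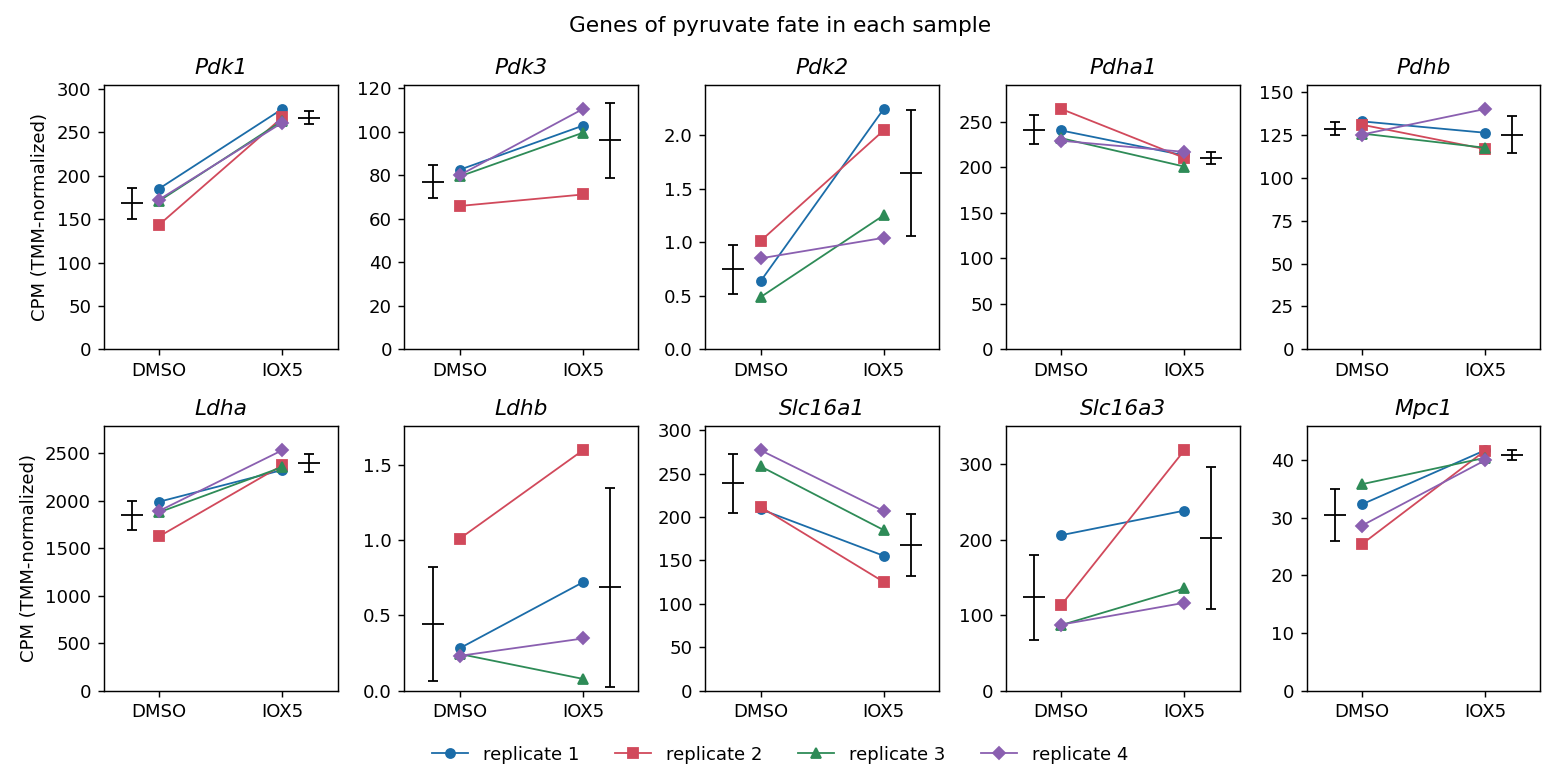
Level of each of the 10 genes in each sample, in CPM on a linear axis from 0. Points joined by a line are the DMSO and IOX5 samples of the same replicate number, and bars beside them are the mean and SD of 4 samples. *Pdk1* and *Ldha* rise in all 4 numbers with the groups apart, *Slc16a1* falls in all 4, and *Slc16a3* rises in all 4 with groups that overlap, from 86.8 to 205.8 CPM with DMSO and from 116.3 to 318.2 CPM with IOX5.

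Among the kinases, *Pdk1* (ENSMUSG00000006494, GRCm38 chr2:71873224-71903858) had the smallest adjusted p of the members. It encodes the PDH kinase that hypoxia is best known to induce. Its levels were 185.2, 143.6, 170.9 and 172.6 CPM in DMSO samples 1 to 4 and 277.0, 267.2, 263.2 and 261.2 CPM in IOX5 samples 1 to 4. The lowest IOX5 sample was well above the highest DMSO sample, and the 4 IOX5 samples lay closer together (SD 7.02 CPM, n = 4) than the 4 DMSO samples (SD 17.5 CPM, n = 4). The increase was 1.59-fold, a log2 fold change of 0.67 (standard error, SE, 0.079, 95% interval 0.49 to 0.85, edgeR adjusted p = 0.0157, 8.8e-05 with the replicate block). Within the replicate numbers the log2 difference was 0.58, 0.90, 0.62 and 0.60 for numbers 1 to 4. It lost the call when DMSO replicate 3 or 4 or IOX5 replicate 3 was left out, with an edgeR adjusted p of 0.0613, 0.0832 and 0.0619.

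*Pdk3* (ENSMUSG00000035232, GRCm38 chrX:93764607-93832201) encodes a second PDH kinase. It was at 82.5, 65.9, 79.5 and 80.1 CPM with DMSO and at 102.7, 71.1, 99.5 and 110.4 CPM with IOX5. The IOX5 sample numbered 2 lay inside the DMSO range, as the DMSO sample of that number was also the lowest of its group, and within each number IOX5 was higher. IOX5 over DMSO gave a log2 fold change of 0.32 (SE 0.135, 95% interval 0.012 to 0.62). Without the block edgeR gave an adjusted p of 0.231, and with it 0.00846 (0.0626 with the block and without number 3).

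*Pdk2* (ENSMUSG00000038967, GRCm38 chr11:95026258-95041354), the kinase found in most tissues, was barely expressed. Its 8 libraries held 9, 13, 6 and 11 reads with DMSO and 28, 23, 16 and 12 reads with IOX5, or 0.49 to 1.01 CPM against 1.04 to 2.24 CPM. The groups did not overlap, but the nearest samples were 1.01 and 1.04 CPM. The fitted log2 fold change was 1.13 (SE 0.349, edgeR adjusted p = 0.120, 0.0183 with the replicate block, and with the block 0.110 without number 1 and 0.0793 without number 3). All 4 IOX5 libraries met the filter on low counts, while DMSO libraries 1 and 3 held 9 and 6 reads. *Pdk2* was thus kept through the group where it was higher, which limits what its test can show. It was left out where at least 10 counts were required in every sample. *Pdk4*, the kinase that fasting and fatty acids induce, had no read in the 4 DMSO libraries and 6 reads in 3 of the 4 IOX5 libraries. The 0 reads allow an expected count of up to 3.69 over the group (exact Poisson interval, counting error only), so a difference was not resolved at this depth.

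Of the PDH phosphatases, which reverse the action of the kinases, *Pdp2* was lower with IOX5 in the fit with the replicate block. It was at 63.5, 55.7, 64.3 and 66.2 CPM with DMSO and at 52.9, 41.8, 52.1 and 52.4 CPM with IOX5, without overlap. On the log2 scale the difference was -0.33 (SE 0.092, edgeR adjusted p = 0.0989, 0.00455 with the replicate block). *Pdp1* (log2 fold change -0.11, edgeR adjusted p = 0.715) and *Pdpr*, the regulatory subunit of the phosphatase (-0.00064, adjusted p = 0.999), passed the threshold neither without nor with the block.

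The target of the kinases, the E1 alpha subunit *Pdha1* (ENSMUSG00000031299, GRCm38 chrX:160122209-160138413), was at 240.4, 264.0, 232.0 and 229.2 CPM with DMSO and at 213.1, 210.3, 200.8 and 216.9 CPM with IOX5. All IOX5 samples were below all DMSO samples, by a small margin. The log2 fold change was -0.20 (SE 0.061, 95% interval -0.34 to -0.060). It was called with the replicate block and by DESeq2 (adjusted p = 0.0457 and 0.0371) and not by edgeR without the block (0.120). With the block it lost the call without number 1, 2 or 3 (adjusted p = 0.125, 0.125 and 0.191). Part of *Pdha1* lies opposite *Map3k15* on the other strand (603 exonic bases), and 13.02% of the 85-base stretches of its transcripts also occur in transcripts of *Map3k15*. *Map3k15* had 822 reads over all 8 libraries.

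The E1 beta subunit *Pdhb* (ENSMUSG00000021748, GRCm38 chr14:8165996-8173025) was at 132.8, 130.9, 125.8 and 125.2 CPM with DMSO and at 126.2, 116.7, 117.5 and 140.1 CPM with IOX5. The highest and the lowest sample were both IOX5 samples. The fitted log2 difference was -0.041, with a 95% interval from -0.20 to 0.12 (edgeR adjusted p = 0.789, 0.685 with the replicate block). Of its 85-base stretches, 15.9% are shared with *Gm6123*. The mean of all 5 tested subunits of the complex was lower in IOX5 samples (median log2 fold change -0.20). Without the block 0 were called by edgeR, with 3 at an unadjusted p under 0.05, 1 called by DESeq2 and 0 by voom (20.2%, 8.79% and 8.35% of all genes). With the block, where 9.43% of all genes were called lower, *Pdha1* and the E3 subunit *Dld* (log2 fold change -0.23, adjusted p = 0.168 without and 0.0457 with the block by edgeR, up to 0.244 with 1 number left out) were called. The E2 subunit *Dlat* (-0.20, 0.0531 with the block) and the E3-binding protein *Pdhx* (-0.14, 0.237 with the block) were not, and the testis form *Pdha2* had no read in any library.

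*Ldha* (ENSMUSG00000063229, GRCm38 chr7:46841475-46855627), the subunit of lactate dehydrogenase that dominates in glycolytic tissues, rose with IOX5. Its levels were 1988, 1623, 1877 and 1892 CPM with DMSO and 2322, 2371, 2353 and 2530 CPM with IOX5. The groups were separate, and the DMSO sample numbered 2 was the lowest, as for *Pdk1*. The log2 fold change was 0.38 (SE 0.071, 95% interval 0.21 to 0.54, edgeR adjusted p = 0.0410, 0.00292 with the replicate block). The call was near its threshold. Without any 1 of the samples but IOX5 replicate 4 the adjusted p by edgeR lay between 0.0628 and 0.132, and it was 0.0988 without the filter on low counts. Within the replicate numbers the log2 difference was 0.22, 0.55, 0.33 and 0.42. Of the 85-base stretches of *Ldha*, 1.81% are shared with 3 pseudogenes.

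*Ldhb* (ENSMUSG00000030246, GRCm38 chr6:142490249-142507957), the subunit that dominates in heart and other oxidative tissues, was close to absent. It had 4, 13, 3 and 3 reads with DMSO and 9, 18, 1 and 4 reads with IOX5, 23 reads in all (95% exact Poisson interval 14.6 to 34.5) against 32 (21.9 to 45.2). The intervals, which cover counting error only, overlap, and number 2 held the most reads in both groups. Of its 85-base stretches, 10.1% are shared with *Gm5514*. *Ldhc*, *Ldhd* and *Ldhal6b*, the other lactate dehydrogenase genes examined, were too low to be tested, with at most 30 reads per group. Nearly all lactate dehydrogenase mRNA was thus *Ldha* in both groups, 99.9% ± 0.072 (SD, n = 4) of the reads per exon length of *Ldha*, *Ldhb* and *Ldhc* with DMSO and 99.9% ± 0.067 (SD, n = 4) with IOX5.

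The means of the lactate carriers differed in opposite directions, and both carriers passed the threshold with the replicate block. *Slc16a1* (ENSMUSG00000032902, GRCm38 chr3:104638668-104658462), which encodes MCT1, a high-affinity carrier that works in both directions, was at 209.0, 211.6, 258.4 and 277.0 CPM with DMSO and at 155.4, 125.3, 185.0 and 206.9 CPM with IOX5. The highest IOX5 sample was just below the lowest DMSO sample, and in both groups numbers 3 and 4 were above numbers 1 and 2. The log2 fold change was -0.51 (SE 0.159, 95% interval -0.87 to -0.15). Without the block edgeR gave an adjusted p of 0.126, and with it 0.000418, while DESeq2 gave 0.0353 and limma's voom 0.0333. Within the numbers the log2 difference was -0.43, -0.76, -0.48 and -0.42. With the block and any 1 number left out the adjusted p by edgeR stayed between 2.96e-05 and 0.00581.

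*Slc16a3* (ENSMUSG00000025161, GRCm38 chr11:120948480-120960868) encodes MCT4, the carrier by which glycolytic cells export lactate. It was at 205.8, 113.2, 86.8 and 87.4 CPM with DMSO and at 238.3, 318.2, 135.3 and 116.3 CPM with IOX5. The groups overlap, since DMSO sample 1 was above IOX5 samples 3 and 4, and the level went with the replicate number as well as with the treatment. Numbers 1 and 2 were high and 3 and 4 low, with means over both treatments of 218.9 and 106.4 CPM, the reverse of *Slc16a1* at 175.3 and 231.8 CPM. IOX5 over DMSO gave a log2 fold change of 0.71 (SE 0.379, 95% interval -0.15 to 1.57). Without the block edgeR gave an adjusted p of 0.335, and with it 0.00618. Within the numbers the log2 difference was 0.21, 1.49, 0.64 and 0.41, all above 0 but far apart. Without DMSO replicate 1 the log2 fold change was 1.08 and without IOX5 replicate 2 it was 0.40, and neither was called. The summed macrophage markers were highest in the same IOX5 sample, number 2 (237.7 CPM, against 83.2 to 125.3 CPM in the other 3), and their part in the level of *Slc16a3* was not tested.

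Of the other carriers, *Bsg*, which encodes basigin, the chaperone that MCT1 and MCT4 need to reach the plasma membrane, rose with IOX5. It was at 363.0, 305.5, 343.1 and 367.1 CPM with DMSO and at 484.6, 448.7, 481.5 and 526.4 CPM with IOX5, well apart. On the log2 scale the difference was 0.49 (SE 0.077, edgeR adjusted p = 0.0254, 0.000255 with the replicate block). Without any 1 of the samples but IOX5 replicate 2 or 4 the call was lost, at an adjusted p of up to 0.0979. *Emb*, the chaperone embigin that serves MCT2, had a log2 fold change of 0.11 (edgeR adjusted p = 0.342). *Slc16a7* (MCT2) was low, at 1.06 to 2.33 CPM with DMSO and 1.82 to 3.68 CPM with IOX5. For this gene edgeR gave an adjusted p of 0.286 without and 0.0248 with the block (up to 0.126 with 1 number left out), at a log2 fold change of 0.72. *Slc16a8* (MCT3) had no read.

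The mitochondrial pyruvate carrier is a heterodimer of MPC1 and MPC2. *Mpc1* (ENSMUSG00000023861, GRCm38 chr17:8282904-8297661) was at 32.3, 25.4, 35.8 and 28.6 CPM with DMSO and at 41.7, 41.6, 40.4 and 40.0 CPM with IOX5. The groups did not overlap, and the IOX5 samples lay closer together (SD 0.880 CPM, n = 4) than the DMSO samples (SD 4.50 CPM, n = 4). The log2 fold change was 0.42 (SE 0.105, 95% interval 0.18 to 0.66). It passed the threshold with the replicate block (edgeR adjusted p = 0.00567) and by DESeq2 (0.00647), and not by edgeR without the block (0.0724). Of its 85-base stretches, 17.9% are shared with the pseudogene *Mpc1-ps* or with *4930506C21Rik*. The latter overlaps *Mpc1* on the opposite strand over 480 exonic bases and had 18 reads over all 8 libraries. *Mpc2* was at 27.2, 30.5, 29.1 and 23.2 CPM with DMSO and at 40.4, 50.3, 27.4 and 40.8 CPM with IOX5. Number 3 went against the others, with IOX5 below DMSO. Its log2 fold change was 0.53 (SE 0.173, edgeR adjusted p = 0.138, 0.0104 with the replicate block and up to 0.0523 with 1 number left out).

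The libraries numbered 1 and 2 and those numbered 3 and 4 can also be read apart, as mean log2 differences within the numbers and with no test. For *Pdk1* the difference was 0.74 in numbers 1 and 2 and 0.61 in 3 and 4, and for *Ldha* 0.39 and 0.37. It was -0.59 and -0.45 for *Slc16a1*, 0.85 and 0.53 for *Slc16a3*, 0.54 and 0.33 for *Mpc1*, 0.21 and 0.39 for *Pdk3*, and -0.25 and -0.14 for *Pdha1*. All of these had the same sign in both pairs of numbers, and *Pdhb*, at -0.12 and 0.032, did not.

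**Figure D2:**
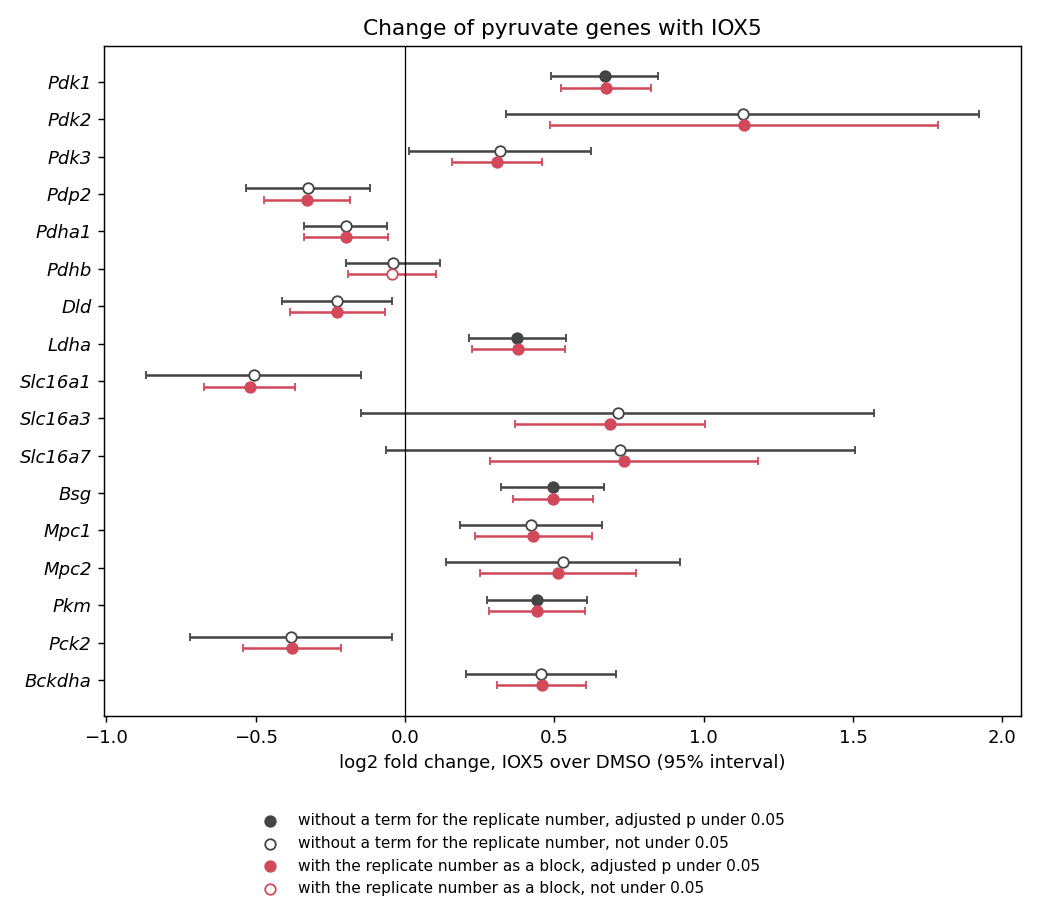
Log2 fold change of IOX5 over DMSO with its 95% interval from edgeR, for the 9 tested members and the 8 other pyruvate genes called without or with the replicate block. Filled points have an adjusted p under 0.05, grey without a term for the replicate number and red with the number as a block. The estimates are nearly the same in both fits, and the intervals of *Slc16a1* and *Slc16a3* are those that narrow most among the members.

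Around these genes, 33 others that make, use or regulate the use of pyruvate were examined, of which 25 were tested. Without the block 2 were called, *Bsg* and *Pkm*, both higher, where 0.774% of all genes were called higher. The median log2 fold change of the 25 was -0.013. With the block 5 were higher and 3 lower, beside 11.2% and 9.43% of all genes, so that the share lower (3 of 25) was near that of all genes. *Pkm* encodes the pyruvate kinase that makes pyruvate. It was at 2661, 2404, 2719 and 2858 CPM with DMSO and at 3308, 3807, 3510 and 3836 CPM with IOX5, apart in every sample. Its log2 fold change was 0.44 (SE 0.074, edgeR adjusted p = 0.0282, 0.00149 with the block), and 10.9% of its stretches are shared with other genes, among them *Gm49759*, which overlaps it on the same strand. Leaving out any sample but IOX5 replicate 1 or 4 ended this call, at an adjusted p of up to 0.105. *Pck2*, which makes phosphoenolpyruvate from oxaloacetate in mitochondria, was lower (log2 fold change -0.38, edgeR adjusted p = 0.199 without and 0.00426 with the block, up to 0.0551 with 1 number left out).

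The other pyruvate enzymes tested, *Pcx*, *Gpt*, *Gpt2*, *Me1* and *Me2*, were called in neither fit, *Pklr* had 29 reads in each group and *Me3* had none. None of the 3 lipoate attachment genes, whose products fit the cofactor to the E2 subunit, was called by edgeR, DESeq2 or voom. Their median log2 fold change was -0.20, and 1 had an unadjusted p under 0.05 by edgeR, as did 20.2% of all genes. In the branched-chain 2-oxoacid complex, a relative of PDH that was examined with its kinase, 1 of 5 genes was called, by edgeR with the block, DESeq2 and voom. Of all genes, 11.2% were called higher with the block, 8.79% were called by DESeq2 and 8.35% by voom. The gene called was *Bckdha*, higher, with a log2 fold change of 0.46 (edgeR adjusted p = 0.0686 without and 0.000815 with the block). *Bckdha* overlaps *B3gnt8* on the opposite strand over 1171 exonic bases. The kinase of the complex, *Bckdk*, a relative of the PDH kinases, had a log2 fold change of 0.011 (edgeR adjusted p = 0.938).

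On the path to pyruvate, all 14 glycolytic genes examined were higher in the mean of the IOX5 samples (median log2 fold change 0.37). Of these, 7 were called higher by edgeR (10 with the block), beside 0.774% of all genes (11.2% with the block). *Pkm*, described above, is counted in this list as well. Beyond acetyl-CoA, 14 of 16 genes of the tricarboxylic acid cycle had a lower mean, with a median of -0.080. Of these, *Idh3a* alone was called, as lower (4 with the block, *Cs*, *Idh3a*, *Ogdh* and *Fh1*, all lower), beside 1.25% of all genes (9.43% with the block). The medians of both lists stand beside 0.017 for all genes tested, and no test of either list was made.

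Levels can be compared between the genes only per length, and 2 lengths were used, all annotated exons and the longest principal transcript. By exon length the order with DMSO was *Ldha*, at 557.4 ± 47.1 CPM per kilobase (SD, n = 4), then *Pdha1* at 64.6 ± 4.24, *Slc16a1* at 54.0 ± 7.68, *Pdhb* at 33.3 ± 0.982, *Pdk3* at 30.1 ± 2.94, *Slc16a3* at 23.2 ± 10.6, *Pdk1* at 21.6 ± 2.25 and *Mpc1* at 14.7 ± 2.16. *Ldhb* at 0.282 ± 0.242 and *Pdk2* at 0.236 ± 0.073 came last and did not differ beyond their spread. *Pdhb* and *Pdk3* lay close to each other, and the range of *Slc16a3* took in *Pdk1* and *Pdk3*. With IOX5, *Pdk1* rose to 34.3 ± 0.902, *Slc16a3* was at 38.0 ± 17.7 and *Slc16a1* at 38.0 ± 8.03.

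By the length of the principal transcript, *Pdha1* was at 84.8 ± 5.56 with DMSO (SD, n = 4) and *Pdhb* was within that spread, and *Pdk1* was below *Pdk3* with DMSO (32.4 ± 3.38 and 36.4 ± 3.56) and above it with IOX5 (51.5 ± 1.35 and 45.4 ± 8.11). By exon length *Pdk1* stayed below *Pdk3* in the mean of both groups. For the carriers, *Slc16a3* was at 46.6 ± 21.7 and *Slc16a1* at 38.0 ± 8.03 with IOX5 by transcript length (SD, n = 4 each). Which kinase mRNA was the more abundant with IOX5 thus depended on the length. *Ldha* was the highest and *Pdk2* and *Ldhb* were the lowest of the 10 by either length.

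The summed level of the MCT carrier mRNAs per exon length had close means, 77.3 ± 7.10 with DMSO and 76.2 ± 9.96 with IOX5 (SD, n = 4 each). In the samples it was 86.1, 69.3, 74.8 and 79.1 with DMSO and 80.2, 88.4, 67.4 and 68.8 with IOX5. The sum was thus lower with IOX5 in numbers 1, 3 and 4 and higher in number 2. The make-up of that sum was different, as *Slc16a3* took 44.9%, 30.7%, 21.8% and 20.8% of it with DMSO and 55.9%, 67.7%, 37.7% and 31.8% with IOX5. In all 4 numbers the IOX5 sample had the larger share, while the groups overlapped. The PDH kinase sum was 44.5 to 56.2 with DMSO and 62.9 to 77.0 with IOX5.

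Ratios of reads within a sample do not depend on the scaling of the libraries, and 6 were tested by an exact two-sided permutation test over the 70 assignments of the samples, for which the smallest p is 0.0286. *Pdk1* was higher relative to *Pdk3* in each IOX5 sample. The ratio of their reads was 2.24, 2.18, 2.15 and 2.16 with DMSO, within a narrow band, and 2.70, 3.76, 2.65 and 2.37 with IOX5. All IOX5 samples were above all DMSO samples, a log2 difference of 0.37 (exact permutation test, p = 0.0286, adjusted over the 6 ratios 0.0857). The difference did not pass after adjustment, and without IOX5 replicate 2 the difference was 0.23.

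The ratio of *Pdha1* to *Pdhb* was 1.81, 2.02, 1.84 and 1.83 with DMSO and 1.69, 1.80, 1.71 and 1.55 with IOX5. It was lower with IOX5 in all 4 numbers and without overlap, a log2 difference of -0.15 (exact permutation test, p = 0.0286, adjusted 0.0857). The E1 enzyme is built of equal numbers of both subunits.

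The ratio of *Slc16a3* to *Slc16a1* was 0.984, 0.535, 0.336 and 0.316 with DMSO and 1.53, 2.54, 0.731 and 0.562 with IOX5. In each number it was higher with IOX5, and DMSO sample 1 was above IOX5 samples 3 and 4. The mean log2 difference was 1.21, or 2.31-fold (exact permutation test, p = 0.114, adjusted 0.229), the largest of the 6. Within the numbers it was 0.64, 2.25, 1.12 and 0.83. The ratios of *Pdk1* to *Pdk2* (log2 difference -0.45, exact permutation p = 0.286), *Mpc1* to *Mpc2* (-0.071, p = 0.714) and *Ldha* to *Ldhb* (0.14, p = 0.971) did not differ beyond the spread between samples, and those with *Pdk2* and *Ldhb* rest on few reads.

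**Figure D3:**
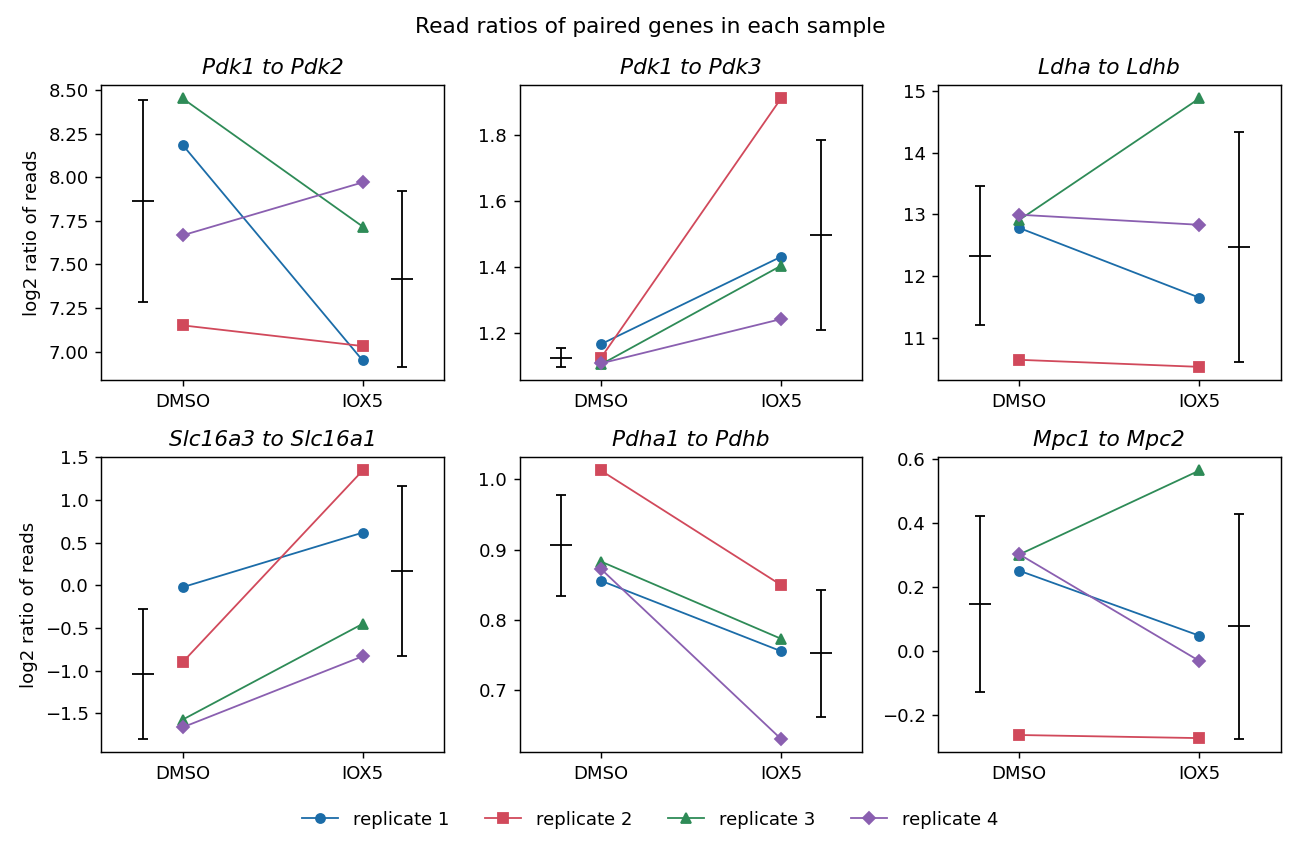
Log2 ratio of the reads of 6 gene pairs in each sample, with lines joining samples of the same replicate number and bars for the mean and SD of 4 samples. The axes do not start at 0. *Pdk1* to *Pdk3* rises and *Pdha1* to *Pdhb* falls in all 4 numbers with the groups apart, and *Slc16a3* to *Slc16a1* rises in all 4 with overlap.

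Across the 8 samples, the genes with a pattern most like that of *Pdk1* were *Ndufa1* (Pearson r = 0.991), *Trappc6a*, *Itm2b*, *Pgk1* and *Pygl* (0.986), among 8925 genes with a mean of at least 10 CPM. For *Ldha* they were *Pgk1* (r = 0.993), *Tpi1*, *Trappc6a*, *Pfkl* and *Bsg* (0.978), of which *Pgk1*, *Tpi1* and *Pfkl* are glycolytic. For *Slc16a1* they were *Prr11* (r = 0.992), *Rrp1b*, *Ktn1*, *Dpy19l1* and *Elovl6* (0.985). For *Slc16a3*, added after its values were seen, the gene most like it was *Pctp* (r = 0.989). These values describe 8 libraries that share the replicate numbers as well as the treatment.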

How the data were processed

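Strand-specific libraries of poly(A) RNA had been read from a single end over 85 bases. Per the labels and the methods of the study, the authors trimmed reads with Cutadapt 1.18 (minimum length 50), mapped them to GRCm38 with HISAT2 2.2.1 and counted them on Ensembl genes with HTSeq 2.0.1. The deposited values are raw read counts, 1 file per sample and without normalization. The annotation release and, apart from the word reverse in the names of the files, the strand setting are not given in the sources used here. The 5 summary lines of each file (20.6% to 22.6% of reads, including reads that did not map uniquely) stayed out of library sizes and tests.

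Genes were named from GENCODE M21, which matched 54809 of 54838 identifiers. With edgeR 4.0.16 in R 4.3.3, filterByExpr retained 12405 genes, libraries were scaled by TMM, and IOX5 was compared with DMSO by the quasi-likelihood test, called at a Benjamini-Hochberg adjusted p under 0.05. CPM values are TMM-normalized. The common biological coefficient of variation was 0.202, and 0.0794 with the replicate block. Standard errors are those implied by the quasi-likelihood test, and 95% intervals use its degrees of freedom. The replicate numbers come from the sample titles. Deviations from the group means correlated between samples of the same number (r = 0.758, 0.744, 0.732 and 0.636 for numbers 1 to 4). The largest correlation with another number was 0.212 for numbers 1 and 2 and 0.685 for numbers 3 and 4, so 3 and 4 were not told apart from each other in this way. The numbers were treated as pairing the samples since every same-number value was over 0.1. Values between different numbers passed that limit too, so it does not show that the samples were paired. Where the replicate block moved a call both values are given. With 11351507 to 14116054 reads on genes per library, genes that did not reach about 10 reads in at least 4 libraries could not be tested. Alternatives were DESeq2 1.42.0, upper-quartile or RLE scaling, limma 3.58.1 voom with weights for samples, a threshold of 0.1, thinning of all libraries to the depth of the smallest, a filter of at least 10 counts in every sample or none, and each sample left out. The values within replicate numbers 1 and 2 and 3 and 4 alone were added after seeing the data. The edgeR fits without and with the block, DESeq2 and voom were tried on simulated counts that held no effect of the replicate number. The permutation test of ratios was not tried in this way. Stretches of 85 bases shared with other genes were counted over the GENCODE M21 transcripts, on either strand.

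The genes, the lists around them and the rule for naming (all members, and each listed gene called without or with the block) were chosen with earlier results of these data known. Promoters are those of RefSeq on GRCm38.p6, found for all 10 members.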

Additional observations from a re-analysis of the deposited data

Results flagged for a closer look

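In 48 groups of 4 samples that were examined for a sample far from the other 3 (Dixon's test), 4 were marked, where chance marks about 1 in 20 groups. *Ldhb* was at 1.01 CPM in DMSO sample 2 and at 0.23 to 0.28 CPM in the other 3, which is 13 reads against 3 to 4. The log2 ratio of *Ldha* to *Ldhb* was accordingly 10.6 in DMSO sample 2 and at least 12.8 in the others. *Pdp2* was at 41.8 CPM in IOX5 sample 2 and at 52.1 to 52.9 CPM in the others. The log2 ratio of *Mpc1* to *Mpc2* was -0.26 in DMSO sample 2 and 0.25 to 0.30 in the others. All 4 are samples numbered 2.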

How the results depend on the processing

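The direction of each of the 9 tested members was the same in every fit that included it, and within numbers 3 and 4 alone (added after seeing the data) the log2 difference of *Pdhb* was 0.032, above 0. The calls depended on the model. Over all genes tested, 1394 were higher and 1170 lower with the replicate block, 489 and 602 by DESeq2, 426 and 610 by limma's voom, and 332 and 486 at a threshold of 0.1. Without the filter on low counts 73 were lower, and with upper-quartile factors 101 were higher and 108 lower. With the replicate block and number 1, 2, 3 or 4 left out, 994, 1119, 642 and 1355 genes were higher and 650, 1016, 403 and 1058 lower. Leaving out 1 sample without the block gave 0 to 130 genes higher and 0 to 333 lower. Both counts were 0 by edgeR when DMSO replicate 3, IOX5 replicate 3 or DMSO replicate 4 was left out, where 1969, 2111 and 1846 genes had an unadjusted p under 0.05.

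Of the members, the replicate block called 6 higher and 2 lower, and 5, 6, 4 and 6 higher with 1, 1, 1 and 2 lower when number 1, 2, 3 or 4 was left out. DESeq2 called 2 lower and voom 1, and without the filter 1 was higher, *Pdk1*. With 1 sample left out, 0 to 2 members were higher and 0 lower. *Pdk1* was called in 5 of 8 such comparisons, *Ldha* in 1, *Bsg* in 2 and *Pkm* in 2. *Pdk2* and *Pdha1* lost their call with the block when number 1 or 3 was left out, *Pdha1* also without number 2, and *Pdk3* without number 3.

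Among the ratios, *Pdk1* to *Pdk3* ran from 0.23 to 0.46 with 1 sample left out (exact permutation p = 0.0286 to 0.0571), and *Pdha1* to *Pdhb* from -0.19 to -0.11 (0.0286 to 0.0571), or -0.14 with thinned counts (p = 0.0571). *Slc16a3* to *Slc16a1* ran from 0.82 to 1.55 and *Pdk1* to *Pdk2* from -0.69 to -0.25 (-0.30 with log2 CPM and a prior count of 2), neither with an exact permutation p under 0.05. *Ldha* to *Ldhb* ran from -0.66 to 0.79, and was -0.032 with thinned counts. *Mpc1* to *Mpc2* ran from -0.23 to 0.045. The cause of these shifts was not tested. Depth limits *Ldhb*, *Pdk2* and *Pdk4*, each with under 100 reads per group.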
